A study of Mus musculus with 6 samples.

Results

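Havcr2-negative CD8 T cells are CD8 T cells in which no transcript of Havcr2 was counted. Havcr2 (chromosome 11, 46454931 to 46481255, GRCm38) encodes the inhibitory receptor TIM-3. They made up 1310 of 20407 cells that were sorted for CD45 from mouse melanomas and could be assigned to 1 mouse. The members were chosen by measured values. A barcode was kept with at least 500 gene UMIs (unique molecular identifiers, counted molecules), at most 10% mitochondrial UMIs, and a top hashtag with at least 10 counts that held at least 70% of all hashtag counts. A member then needed at least 2 UMIs of Cd3e, Cd3d and Cd3g together, at least 2 UMIs of Cd8a and Cd8b1 together, 0 UMIs of Havcr2, Cd4, Trdc and Foxp3, and fewer than 5 UMIs of C1qa, C1qb and C1qc together. Cells that met the same rule but held at least 1 Havcr2 UMI, 507 in all, are called Havcr2-positive CD8 T cells.

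The cells came from subcutaneous tumours of YUMM1.7, a mouse melanoma line, in female C57BL/6J mice (strain label C57BL/6JRccHsd) aged 8 weeks. All 16 mice carried floxed Nr3c1, the gene of the glucocorticoid receptor. Those called LysM-Cre (LysM-Cre tg/wt, Nr3c1 fl/fl) also carried Cre under the control of the Lyz2 promoter, which is active in myeloid cells, and those called floxed carried Nr3c1 fl/fl only. Each genotype received 12.5 mg/kg of an antibody to PD-1 (anti-PD-1) or of isotype control 2 times per week for 3 weeks from about day 7, and tumours were taken at day 28, which gave 4 conditions of 4 mice. Cells of 8 mice, 2 of each condition, were tagged with hashtag antibodies, mixed, stained with surface antibodies, sorted and loaded as a pool, so the 2 pools E5 and E6 hold all conditions. Mice are numbered only to name them, with mice 1 and 2 in pool E5 and mice 3 and 4 in pool E6.

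CD8 T cells kill cells that present foreign or tumour peptides on MHC class I. Under lasting antigen in tumours they pass from less differentiated cells, which keep the transcription factor TCF-1 (gene Tcf7) and can renew themselves, to effector and exhausted cells, which carry several inhibitory receptors. TIM-3 is typical of the late, terminally exhausted end of this range, and PD-1 (gene Pdcd1) appears earlier. CD8 T cells without TIM-3 therefore can include naive, memory, early effector and progenitor cells.

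Surface proteins were read by antibodies that carry short DNA tags, and the count of a tag stands for the antibody bound to the cell. The tags of the antibodies that the results below turn on are given as deposited, since they are the sequences that were counted. They mark, in order, TIM-3 itself, the ectoenzyme CD39, the inhibitory receptors LAG-3 and PD-1, and CD8a.
TIM3: attggcactcagatg
CD39: gcgtatttaacccgt
CD223: attccgtccctaagg
CD279: gaaagtcaaagcact
CD8a: tacccgtaatagcgt

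Members had a median of 5688 UMIs and 1960 genes, and Havcr2-positive CD8 T cells had a median of 7686 UMIs. A count of 0 is more likely in a shallow cell. Detection of T cell genes and gene comparisons of cell classes were therefore made after each cell was thinned to 2000 UMIs. So was the share of CD8 T cells without Havcr2, for which Havcr2 was read again after thinning. Elsewhere the Havcr2 classes were set on unthinned counts, so shallow cells were more likely to count as Havcr2-negative, which thinning does not undo. Antibodies and the share of kept cells were not thinned. Each mouse gave between 8 members (floxed anti-PD-1 mouse 2) and 235 (floxed isotype mouse 2), with 62131 to 1774287 gene UMIs. No barcode among the members was shared by the pools, against 27 among all kept cells. Just outside the rule lay 264 cells with 1 Havcr2 UMI, 86 with 1 Cd8a or Cd8b1 UMI, and 87 with 5 C1q UMIs. Just inside it lay 71 members with 2 Cd8a and Cd8b1 UMIs and 145 with 4 C1q UMIs.

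The defining markers matched the label, with the limit that the rule itself used Cd3e, Cd8a and Cd8b1. Over all members the levels were 578 CPM (counts per 1000000 gene UMIs) for Cd3e, 660 for Cd8a, 805 for Cd8b1, 1686 for Nkg7, a gene of cytotoxic granules, and 113 for Tcf7. Of the NK cell markers, Ncr1 was at 3.59 CPM and Klrb1c at 23.7 CPM. The summed level of 8 NK cell markers lay between 276 and 1160 CPM per mouse, and Fcer1g, Klre1 and Tyrobp held the most UMIs among them. Cd40lg, which marks helper T cells, was at 5.33 CPM. RNA of myeloid cells was present: 67.9% of members held a Lyz2 UMI and 84.2% a C1q UMI. The summed level of 16 macrophage and monocyte markers lay between 1069 and 3621 CPM per mouse in members, against 25870 CPM in macrophage-like cells (no Cd3 UMI and at least 5 C1q UMIs). Of 10 melanoma markers Mlana, Dct and Tyr were at 0, and the sum of the list reached at most 26.5 CPM in a mouse. Macrophage-like cells had 33.6 CPM of the list and 0.01 CPM of Mlana. Summed fibroblast markers ran from 10.4 to 818 CPM per mouse, highest in floxed isotype mouse 4, against 509 CPM in macrophage-like cells. Neutrophil markers reached 2430 CPM in floxed isotype mouse 4 and at most 769 CPM in every other mouse.

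Members were not uniform. Gzmb, the gene of the cytotoxic protease granzyme B, was detected in 44.4% of 1292 members thinned to 2000 UMIs (95% Wilson interval 41.7 to 47.1, for counting error only). Il7r, the receptor for the survival cytokine interleukin-7, was detected in 30.4% (28.0 to 33.0), Ifng in 20.8%, Xcl1, a chemokine that attracts cross-presenting dendritic cells, in 17.8%, and Tcf7 in 17.7% (15.7 to 19.8). Lower shares held Lag3 (15.6%), Gzmk (15.2%), Pdcd1 (14.6%) and Tox (6.97%). In macrophage-like cells, which should lack these genes, shares at the same depth were 0.489% for Tcf7, 2.13% for Gzmb, 0.474% for Ifng and 3.73% for Il7r. For Mki67 (8.59%), a gene of dividing cells, the macrophage-like cells had 8.20%, so this share does not rise clearly above what other cells show. Klrg1, a receptor of terminal effector cells, was detected in only 1.16% and Itgae, the integrin chain CD103 of tissue-resident cells, in 3.64%. Without thinning the shares were 58.2% for Gzmb, 50.5% for Il7r, 37.3% for Ifng and 35.3% for Tcf7.

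**Figure D1:**
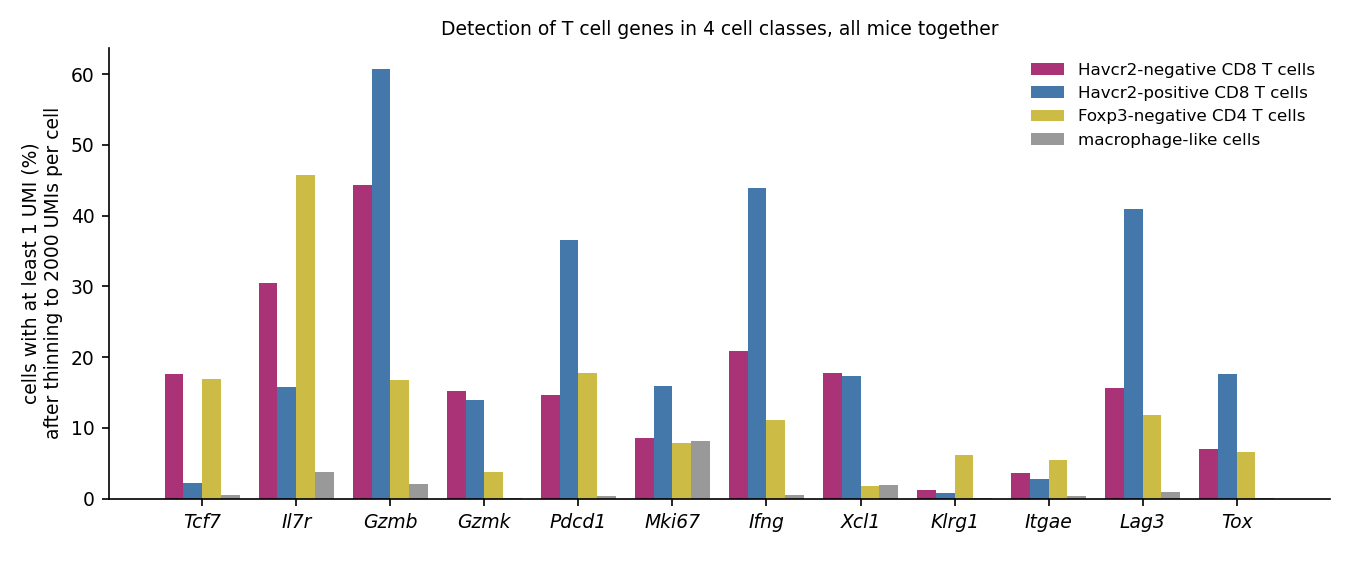
Share of cells with at least 1 UMI of 12 genes after thinning to 2000 UMIs per cell, in Havcr2-negative CD8 T cells, Havcr2-positive CD8 T cells, Foxp3-negative CD4 T cells and macrophage-like cells, all mice together. Tcf7 stands at 17.7% in the Havcr2-negative and 2.20% in the Havcr2-positive cells, whereas Lag3, Pdcd1 and Ifng stand higher in the Havcr2-positive cells.

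The shares varied between mice. Over the 15 mice with at least 10 members, Tcf7 detection ran from 0 of 13 cells (floxed anti-PD-1 mouse 4, which allows a share of up to 23.1% with 3 counts as the limit) to 26.3% (LysM-Cre anti-PD-1 mouse 1), with a median of 17.9%. Gzmb detection ran from 24.8% to 70.4% (median 47.3%), and Il7r detection from 18.9% to 60% (median 32.1%). Among floxed isotype mice Tcf7 detection lay close together (15.3% ± 1.74, SD, n = 4), and it was 18.6% ± 6.59 (n = 4) in LysM-Cre isotype mice. With anti-PD-1 it was 13.5% ± 11.7 (n = 3) in floxed and 21.3% ± 5.59 (n = 4) in LysM-Cre mice. These ranges overlap in every pair of conditions.

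Members were first set against Havcr2-positive CD8 T cells of the same mice, to describe what differs beside Havcr2. Part of the naive and memory, interferon-induced and ribosomal genes were higher in members. Part of the cytotoxic, inhibitory receptor and cell cycle genes were lower, as were Ccl3, Ccl4 and Ifng. Sums of 1284 against 500 cells in 15 mice were fitted with the mouse as a block and genes of the rule left out. The classes differ by the RNA count of Havcr2 in the same libraries, and 264 of the 507 Havcr2-positive cells held just 1 such UMI. Of 1542 genes tested, 268 (17.4%) passed an adjusted p of 0.05 in edgeR's quasi-likelihood test, 155 higher and 113 lower in members. The median log2 change over all genes tested was -0.01.

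Of 8 naive and memory genes tested, 5 were higher in members and none lower (median log2 change 0.70). Klf2, a transcription factor that keeps T cells circulating through blood and lymph, had a lowest, median and highest mouse of 158, 295 and 538 CPM in members and 0, 118 and 583 CPM in Havcr2-positive cells. It was higher in members in 13 of 15 mice, and the ranges overlapped (log2 change 1.34, SE 0.19, edgeR adjusted p = 2.95e-06). Il7r ran from 144 through 259 to 517 CPM in members and from 41.7 through 131 to 500 CPM in the other cells (1.10, SE 0.17, adjusted p = 9.29e-06, edgeR). Satb1, a chromatin organiser of early T cells, was higher in 14 of 15 mice (1.28, SE 0.19), Ly6c2 in 14 (0.79, SE 0.08) and Bcl2, a survival gene, in 13 (0.61, SE 0.13). Outside the list, Emb, an adhesion protein, was higher in 14 of 15 mice (336 and 114 CPM, 1.33, SE 0.17).

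Interferon-induced genes were the list with most genes higher in members by number, though not as a part of the genes tested. Of 28 tested, 15 passed in this direction and none in the other, with a median of 0.51. Rtp4 was higher in members in 15 of 15 mice (median 103 against 45.5 CPM, log2 change 1.27, SE 0.23) and so was Ifi208 (119 against 38.5 CPM, 1.12, SE 0.21). Ifit1, Ifit3 and Isg15, which act against viral RNA and proteins, had log2 changes of 1.10, 1.01 and 0.86 and were higher in 12 or 13 mice. Cxcl10, a chemokine induced by interferon that is also made by macrophages, had the highest log2 change of the genes named by the rule (1.65, SE 0.23, adjusted p = 1.62e-06, edgeR), with medians of 122 and 40.0 CPM. Of 18 genes of ribosomal proteins and translation, 12 were higher and none lower, by at most 0.47 on the log2 scale (Rps27). Of 11 glucocorticoid-responsive genes 4 were higher: Il7r, which is on this list too, Txnip, Zfp36l2 and Tsc22d3, which encodes the anti-inflammatory protein GILZ (medians 167 and 83.3 CPM, log2 change 0.61, SE 0.15), and 1, the metallothionein Mt1, was lower.

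Cytotoxic genes changed in part: 7 of 15 tested were lower in members and none was higher (median -0.35). Gzmf had a lowest, median and highest mouse of 0, 4.46 and 101 CPM in members and 0, 54.6 and 1373 CPM in Havcr2-positive cells (log2 change -2.93, SE 0.34, edgeR adjusted p = 1.21e-07). Prf1, which forms the killing pore perforin, was lower in 14 of 15 mice (medians 155 and 382 CPM, log2 change -1.35, SE 0.16). Gzmb differed less (603 and 1242 CPM, -0.59, SE 0.13, lower in 12 of 15 mice), and Nkg7 by -0.37 (SE 0.06). Granzyme genes lie in a cluster of similar copies, so counts of Gzmd and Gzmf, both lower, may be shared between neighbours.

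Of 8 inhibitory receptor and exhaustion genes tested, 5 were lower and none higher. Lag3 was lower in 15 of 15 mice (lowest, median and highest 33.1, 116 and 207 CPM against 125, 273 and 550 CPM; log2 change -1.30, SE 0.15, edgeR adjusted p = 4.99e-08). Rgs16, a regulator of G-protein signalling, was lower in all 15 (medians 64.7 and 300.0 CPM, -2.31, SE 0.21). Pdcd1 was lower in 13 (111 and 252 CPM, -1.04, SE 0.15), Ctla4 in 13 (-0.94, SE 0.20) and Nr4a2, a transcription factor induced by receptor signalling, in 14 (-1.16, SE 0.22). Of 10 cytokine and chemokine genes, 4 were lower, among them Ccl3 (100 and 750.0 CPM, log2 change -2.30, SE 0.26), Ccl4 (537 and 2767 CPM, -1.67, SE 0.22) and Ifng (183 and 615 CPM, -1.69, SE 0.23), each in 14 of 15 mice, and Cxcl10 was higher.

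Cell cycle genes were lower in 9 of 12 tested and higher in none (median -0.76). Stmn1, which destabilises microtubules in dividing cells, had medians of 143 and 256 CPM (log2 change -0.82, SE 0.16). Of 9 hypoxia and glycolysis genes 6 were lower, with Ldha, the enzyme that makes lactate, at medians of 344 and 600.0 CPM (-0.64, SE 0.13). Killer lectin receptor genes were lower in 4 of 7. Among costimulatory receptors Tnfrsf9, which encodes 4-1BB, was lower in 15 of 15 mice (-1.56, SE 0.21) and Cd69, an early activation marker that also retains cells in tissue, was higher (0.56, SE 0.13). Of 15 genes of T cell receptor signalling none passed in either direction (median 0.01).

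**Figure D2:**
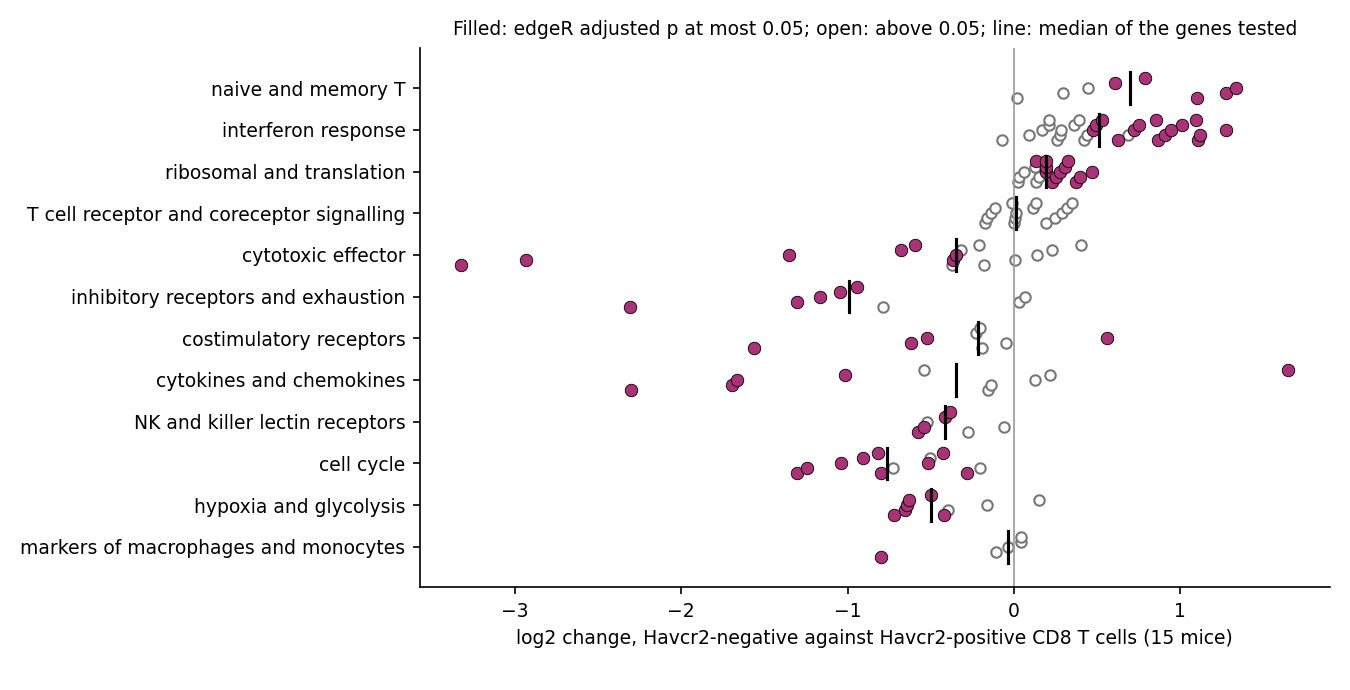
Log2 change of each tested gene, Havcr2-negative against Havcr2-positive CD8 T cells in 15 mice, by gene list. Filled points have an edgeR adjusted p of at most 0.05, open points do not, and the vertical line is the median of the genes tested. Naive and memory, interferon response and ribosomal genes lie mostly to the right (medians 0.70, 0.51 and 0.19), cell cycle and inhibitory receptor genes to the left (-0.76 and -0.99).

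Markers of other cells were mostly not called in this split. Of 5 macrophage and monocyte markers tested, 1 (Spp1) was lower in members and none was higher, with a median of -0.04. The share of cells with a Lyz2 UMI was 67.9% in members and 71.2% in Havcr2-positive cells before thinning. Of 4 dendritic cell markers 1 (H2-Aa) was lower, and of 2 neutrophil markers tested none passed (median -1.03). Chil3, a secreted protein of macrophages and neutrophils, was lower (log2 change -2.65, SE 0.58). Macrophages and dendritic cells express Havcr2 themselves, and the part of their RNA in this comparison was not tested.

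Surface antibodies showed the split at the protein level. They were not used by the rule, but TIM3 reads the product of the gene that was, so its direction is not independent of it. Of 84 antibodies tested, 22 (26.2%) passed an adjusted p of 0.05 in edgeR, 9 higher and 13 lower in members. Levels are given as CPM of all antibody counts (antibody CPM). BTLA, an inhibitory receptor also found on naive T cells, had a lowest, median and highest mouse of 124, 333 and 439 in members and 0, 68.2 and 285 in Havcr2-positive cells. It was higher in members in 15 of 15 mice, with overlap of the ranges (log2 change 1.63, SE 0.30, edgeR adjusted p = 0.000405). CD127, the protein of Il7r, was higher in 12 (0.61, SE 0.12), Ly6C in 13 (0.56, SE 0.14) and CD5, which tunes receptor signalling, in 13 (0.59, SE 0.14).

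TIM3 antibody ran from 703 through 1424 to 2920 in members and from 2083 through 5192 to 13940 in Havcr2-positive cells. It was lower in members in 15 of 15 mice, with some overlap of the ranges (log2 change -1.79, SE 0.18, adjusted p = 6.09e-07, edgeR). In members the control antibody rat IgG1 lay between 34.5 and 682. The antibody to CD4, whose RNA the rule excludes, ran from 487 through 1363 to 2612 there, near the TIM3 values. Whether members carried TIM-3 protein above background was not tested. CD223, which is LAG-3, was lower in all 15 mice (845 and 2318, -1.25, SE 0.14), as were CD39 (21470 and 40760, -0.92, SE 0.12) and CD279, which is PD-1 (2166 and 3361, -0.90, SE 0.15). CD137, the protein of Tnfrsf9, was lower in 13 (-1.13, SE 0.20). CD44, a marker of antigen experience, was at 69110 and 73280 and did not pass (log2 change -0.12, SE 0.11, edgeR adjusted p = 0.470), nor did CD8a (0.09, SE 0.10, adjusted p = 0.542). Antibodies to the myeloid proteins Sirpa, CD169, CD68, CD115 and CD64 were lower in members as well, by 0.51 to 0.87 on the log2 scale, and the part of bound myeloid material in the other antibodies was not tested.

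**Figure D3:**
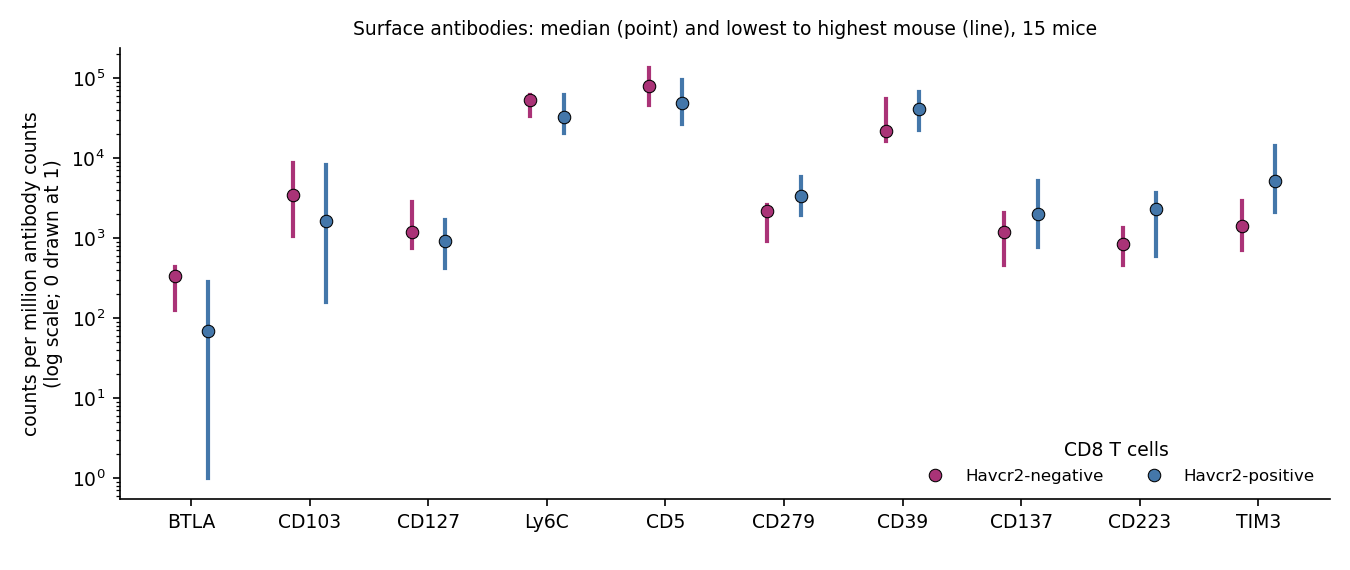
Surface antibody levels in antibody CPM (log scale) in Havcr2-negative and Havcr2-positive CD8 T cells of 15 mice; points are medians and lines run from the lowest to the highest mouse. BTLA has medians of 333 and 68.2 and TIM3 of 1424 and 5192, and for most antibodies the lines of the classes overlap.

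Variation among the members was followed along Tcf7 (chromosome 11, 52246527 to 52283383, GRCm38). After thinning, 228 of 1292 members held a Tcf7 UMI. In these, Il7r was detected in 43.4%, against 27.6% of the members without one. Gzmb was detected in 29.8% against 47.5%, Ifng in 11.8% against 22.7%, Lag3 in 6.58% against 17.5% and Pdcd1 in 7.89% against 16.1%. The states were not exclusive, since 68 cells (5.26%) held both Tcf7 and Gzmb, and 18 (1.39%) both Tcf7 and Pdcd1.

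The split could be fitted in 7 mice, 6 given isotype antibody and 1, LysM-Cre anti-PD-1 mouse 1, given anti-PD-1, with 184 against 814 cells. Of 1531 genes tested, 86 (5.62%) passed in edgeR, 53 higher and 33 lower in Tcf7-detected members. Of 13 naive and memory genes, 6 were higher and none lower. Ccr7, the receptor that guides T cells into lymph nodes, was higher in 7 of 7 mice with no overlap (lowest, median and highest 50, 100 and 225 CPM against 5.43, 16.7 and 39.3 CPM; log2 change 2.80, SE 0.49, edgeR adjusted p = 4.09e-05). Klf2 (475 and 192 CPM, 1.09, SE 0.17), Il7r (426 and 263 CPM, 0.91, SE 0.16) and Ikzf2, a zinc finger factor also found in regulatory T cells (200 and 75.5 CPM, 1.15, SE 0.25), were each higher in 7 of 7. S1pr1, the receptor by which T cells leave tissues, was higher in 6 (111 and 50 CPM, 1.13, SE 0.35, edgeR adjusted p = 0.0341). It did not pass when any of LysM-Cre isotype mice 2 and 4 and floxed isotype mouse 2 was left out (edgeR adjusted p up to 0.201).

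On the other side, 4 of 10 cytotoxic genes were lower in Tcf7-detected members and none was higher. Nkg7 was lower in 7 of 7 mice without overlap (medians 1333 and 2054 CPM, log2 change -0.51, SE 0.09), and Gzmb in 6 (281 and 696 CPM, -1.17, SE 0.16, edgeR adjusted p = 3.80e-07). Ifng (44.4 and 164 CPM, -1.46, SE 0.30), Lag3 (31.2 and 85.7 CPM, -1.35, SE 0.38) and the homing receptor gene Cxcr6 (322 and 564 CPM, -0.89, SE 0.16, no overlap) were lower too. Of 18 ribosomal and translation genes 10 were higher. The call of Lag3 was lost without floxed isotype mouse 2 or without mouse 3 of that group (edgeR adjusted p up to 0.0661). None of the 30 tested genes of the interferon list passed (median -0.08). Outside that list, 3 genes of membrane proteins that interferon also induces were lower: Ifitm3 in 7 of 7 mice (117 and 317 CPM, -1.03, SE 0.20, edgeR adjusted p = 0.000278) and, named after their values were seen, Ifitm1 (-0.72, SE 0.21) and Ifitm2 (-0.65, SE 0.19). Spp1, a macrophage gene, was lower in 7 of 7 mice (46.9 and 154 CPM, -1.64, SE 0.34), and its sign turned when cells were thinned to 4000 UMIs (0.06).

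Of 78 antibodies tested, 7 (8.97%) passed, and 4 did so without LysM-Cre anti-PD-1 mouse 1 and 3 without floxed isotype mouse 1. CD39 was lower in Tcf7-detected members in 7 of 7 mice with no overlap (medians 10740 and 19350, log2 change -1.14, SE 0.17, edgeR adjusted p = 0.00236). CD11a, an integrin that rises on antigen-experienced T cells, was lower in 7 of 7 (138300 and 162100, -0.30, SE 0.04, edgeR adjusted p = 0.00213), and so was CD86, a costimulatory ligand of dendritic cells and macrophages (42600 and 57030, -0.46, SE 0.08, edgeR adjusted p = 0.00562). TIM3 was lower in 6 (485 and 1592, -1.47, SE 0.36), although no Havcr2 UMI was counted in any of these cells. Ly6C was higher in 7 of 7 without overlap (61520 and 52500, 0.22, SE 0.05), and so was CD3 with overlap (0.48, SE 0.12). CD11b, a myeloid integrin also found on effector T cells, was lower in 6 (-0.92, SE 0.23), and the part of bound myeloid material in these antibodies was not tested. With each mouse left out in turn, CD39 and CD86 passed in 7 of 7 fits and CD11a in 6, which failed without floxed isotype mouse 2. Ly6C and TIM3 passed in 2 of 7 and CD11b and CD3 in 1, with an edgeR adjusted p of up to 0.107.

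Against Foxp3-negative CD4 T cells of 12 mice (1229 against 386 cells), 369 of 2356 genes (15.7%) passed in edgeR, 206 higher and 163 lower in members. These CD4 T cells were chosen by counted Cd4 and no counted Foxp3. Regulatory T cells in which Foxp3 was not counted can be among them, and their part in the values below was not tested. Cytotoxic genes were higher in 9 of 13, with Gzma at medians of 205 and 2.94 CPM (log2 change 4.74, SE 0.33) and Nkg7 without overlap at 1773 and 462 CPM (2.06, SE 0.12). Cd160, Klre1 and Xcl1 had a median of 0 in CD4 T cells and of 95.5, 179 and 172 CPM in members. Costimulatory receptors were lower in 7 of 11, among them Tnfrsf4, which encodes OX40 (54.1 and 641 CPM, -3.38, SE 0.21), and Icos (81.1 and 356 CPM, -2.15, SE 0.18). Il7r was lower in members in 12 of 12 mice (281 and 569 CPM, -0.95, SE 0.12), and 8 of 15 glucocorticoid-responsive genes were lower, including Dusp1 (254 and 486 CPM, -0.76, SE 0.14). Of 83 antibodies, 33 (39.8%) passed. CD8a ran from 59910 to 87980 in members and from 165 to 1105 in CD4 T cells, and CD4 from 702 to 2612 and from 120200 to 168100, with no overlap in either.

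The study's conditions were then compared over mice. Havcr2-negative CD8 T cells made up 7.18, 11.4, 4.51 and 6.40% of kept cells in floxed isotype mice 1 to 4 and 15.03, 6.44, 10.1 and 6.25% in LysM-Cre isotype mice. Under anti-PD-1 the shares were 2.97, 4.97, 3.02 and 2.73% in floxed and 7.14, 4.64, 2.52 and 3.07% in LysM-Cre mice. The anti-PD-1 mice were mostly lower, with overlap between treatments in both genotypes. The means were 7.37% ± 2.91 and 3.42% ± 1.04 in floxed mice (SD, n = 4 each, exact two-sided permutation p = 0.0571, adjusted 0.152 over 8 share tests) and 9.46% ± 4.12 and 4.35% ± 2.07 in LysM-Cre mice (exact p = 0.0857, adjusted 0.171). For genotype, the exact p-values were 0.486 among isotype mice and 0.600 among anti-PD-1 mice. With 4 against 4 mice such a test cannot go below 0.0286. A share of sorted cells falls when other cells increase, and the mice were mixed before the sort, so the number of T cells per tumour was not measured.

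The share of CD8 T cells without a Havcr2 UMI, at 2000 UMIs per cell, was 85.9, 85.8, 85.2 and 85.0% in floxed isotype mice 1 to 4 and 94.4, 91.2, 87.4 and 93.7% in LysM-Cre isotype mice. All 4 LysM-Cre mice lay above all 4 floxed mice (91.7% ± 3.15 against 85.5% ± 0.43, SD, n = 4 each, exact two-sided permutation p = 0.0286, adjusted 0.152), and the difference did not pass after adjustment. Under anti-PD-1 the values were 89.5, 85.3 and 64.3% in floxed mice 1, 3 and 4, where mouse 2 had too few cells, and 90.4, 75, 85.2 and 72.7% in LysM-Cre mice (exact p = 0.943). Anti-PD-1 against isotype in LysM-Cre mice gave 80.8% ± 8.37 against 91.7% ± 3.15 (exact p = 0.0571, adjusted 0.152), and in floxed mice 79.7% ± 13.5 (n = 3) against 85.5% ± 0.43 (exact p = 0.657). Without thinning, 66.2 to 73.1% of CD8 T cells in floxed isotype and 74.6 to 90.4% in LysM-Cre isotype mice had no Havcr2 UMI.

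**Figure D4:**
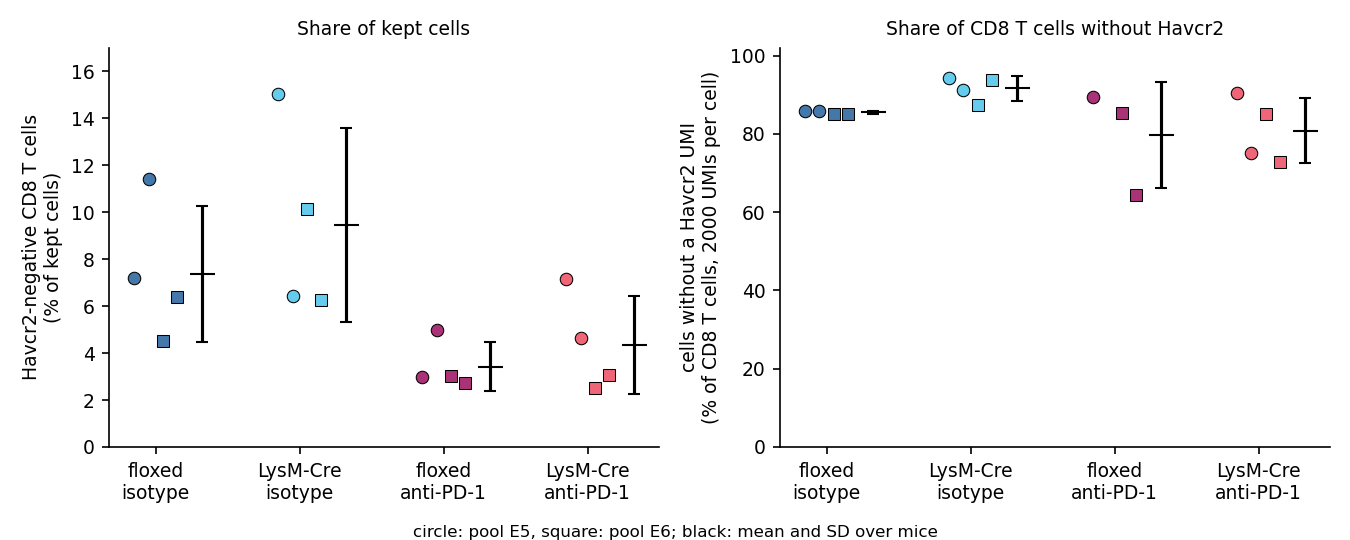
Left, Havcr2-negative CD8 T cells as a percent of kept cells, and right, cells without a Havcr2 UMI as a percent of CD8 T cells thinned to 2000 UMIs, each point a mouse (circles pool E5, squares pool E6) with the mean and SD in black. Isotype mice reach 15.03% and anti-PD-1 mice 7.14% on the left, and on the right all 4 LysM-Cre isotype mice lie above the floxed isotype mice, whose values span 85.0 to 85.9%.

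Almost no gene in the members passed the test between conditions. Sums per mouse were fitted over 15 mice with the pool as covariate; floxed anti-PD-1 mouse 2 with 8 members was dropped. Of 5853 genes tested, edgeR called none (0.0%) by genotype under isotype and 1 (0.0171%) by genotype under anti-PD-1. It called none (0.0%) by treatment in floxed mice, in LysM-Cre mice or over both genotypes, none by genotype over both treatments, and none in the interaction. At an unadjusted p of 0.05 these 7 contrasts counted, in the order given, 109, 347, 312, 255, 322, 341 and 249 genes. Chance alone gives such a p at a rate of 0.05 over the 5853 genes, so these counts are not read as effects. DESeq2 called 0, 7, 1, 0, 3, 6 and 1. In summed cells of a mouse, fewer cells of a state and less RNA per cell cannot be told apart.

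The gene called was Ifng (chromosome 10, 118441046 to 118445894, GRCm38), which encodes interferon gamma, the main cytokine by which CD8 T cells activate macrophages and raise MHC class I. Under anti-PD-1, Ifng was at 2756, 241, 402 and 343 CPM in floxed mice 1 to 4, and at 152, 137, 87.8 and 115 CPM in those with LysM-Cre. With all cells counted, all floxed mice lay above all LysM-Cre mice, and floxed mouse 1 stood far above the rest. In floxed mouse 2, which had 8 members and was not in the fit, 14 of 15 Ifng UMIs came from 1 cell. Without that cell floxed mouse 2 was at 17.3 CPM, below every LysM-Cre mouse, so the lack of overlap rested on it. The log2 change was -3.22 (SE 0.53, edgeR adjusted p = 0.0401), and the interaction of genotype and treatment was -2.37 (adjusted p = 0.971). In floxed mouse 1, 445 of 469 Ifng UMIs (94.9%) came from 1 cell of 7607 UMIs, which also held 476 of the 478 Ccl3 UMIs and 937 of the 995 Ccl4 UMIs of that mouse. Without that barcode the change was -0.99 (SE 0.30, adjusted p = 0.832) and edgeR called no gene in any of the 7 contrasts; without the mouse it was -1.28 (adjusted p = 0.506). Leaving out any 1 of 7 other mice also ended the call, with adjusted p of 0.0523 to 0.219: all 4 LysM-Cre anti-PD-1 mice, LysM-Cre isotype mice 2 and 4, and floxed isotype mouse 3. Within pools the change was -4.28 in E5 (adjusted p = 3.15e-05) and -1.77 in E6 (adjusted p = 0.0850). Ccl3 (-3.63, SE 0.86, adjusted p = 0.262) and Ccl4 (-2.98, SE 0.69, adjusted p = 0.246) did not pass in edgeR, and Ccl3 turned to 0.28 without the barcode. The annotated intervals of Ccl3 and Ccl4 overlap, and whether this affects their counts was not tested. The summed NK cell markers, from cells that also make Ifng, were at 276 to 1160 CPM in floxed and 371 to 915 CPM in LysM-Cre mice under anti-PD-1, and macrophage markers at 1240 to 3621 and 1069 to 2908 CPM; their part in the result was not tested.

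With isotype, Ifng was at 201, 144, 207 and 265 CPM in floxed and 65.8, 103, 153 and 110 CPM in LysM-Cre mice. LysM-Cre mice were mostly lower, with LysM-Cre mouse 3 just above floxed mouse 2 (log2 change -0.84, SE 0.44, edgeR adjusted p = 0.9999). Over both treatments the genotype change was -2.03 (SE 0.35, adjusted p = 0.0590) and, without the barcode, -0.93 (SE 0.18, adjusted p = 0.166). The share of members with an Ifng UMI, in which each cell counts once, was 25.3% ± 4.17 in floxed isotype (n = 4), 16.3% ± 6.00 in LysM-Cre isotype (n = 4), and with anti-PD-1 31.5% ± 11.8 in floxed (n = 3) and 21.0% ± 2.21 in LysM-Cre mice (n = 4). These shares overlap between genotypes under both treatments.

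Next by p over both treatments were the chaperone gene Hspa1b and the histone demethylase gene Kdm6b, and neither passed. They were named after their values were seen. Hspa1b was at 95.9, 173, 266 and 653 CPM in floxed isotype and 167, 17.5, 85.8 and 132 CPM in LysM-Cre isotype mice, with overlap (genotype over both treatments -2.22, SE 0.42, edgeR adjusted p = 0.0639). It is induced by heat and tissue dissociation, and the summed level of 13 heat shock genes ran from 3976 to 7442 CPM over all mice. Kdm6b under anti-PD-1 was at 88.1, 129, 95.5 and 61.3 CPM in floxed mice. It was at 14.4, 17.7, 12.5 and 20.8 CPM in those with LysM-Cre, without overlap when all cells were counted. In floxed mouse 1, 13 of 15 Kdm6b UMIs (86.7%) came from 1 cell of 7607 UMIs, the same total as the cell with most Ifng. Without that cell this mouse was at 12.3 CPM, below all 4 LysM-Cre values, so the lack of overlap rested on it. Floxed mouse 2, with 8 Kdm6b UMIs in 8 members, was not in the fit. The change of Kdm6b over both treatments was -1.36 (SE 0.25, edgeR adjusted p = 0.0639).

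**Figure D5:**
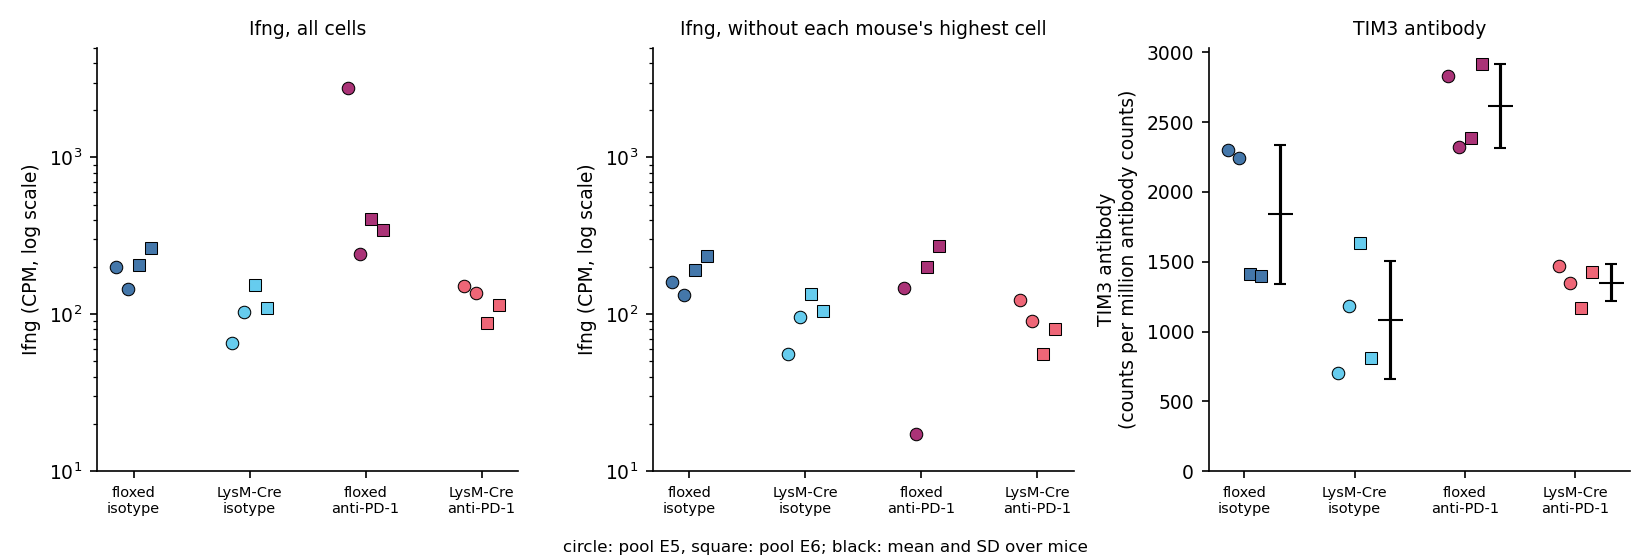
Ifng in Havcr2-negative CD8 T cells of each mouse (CPM, log scale) with all cells and without each mouse's highest cell, and TIM3 in antibody CPM (linear scale, mean and SD in black); circles are pool E5 and squares pool E6. Floxed anti-PD-1 mouse 1 drops from 2756 to 148 CPM without its highest cell, and TIM3 antibody under anti-PD-1 is at 1168 to 1466 with LysM-Cre and at 2323 to 2920 without it.

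By list, no gene other than Ifng passed in any contrast. Over both treatments, 14 of 15 inhibitory receptor and exhaustion genes were fitted lower in LysM-Cre mice (median -0.37) and 15 of 16 T cell fate transcription factors (median -0.38), whereas all 18 ribosomal and translation genes were fitted higher (median 0.14). The median of all genes was 0.01. Of 37 interferon-induced genes, 28 were fitted lower under anti-PD-1 in floxed mice (median -0.38). The median of all genes for that contrast is not given here, so this count stands without a background. Of 21 glucocorticoid-responsive genes, 13 were fitted higher in LysM-Cre mice over both treatments (median 0.24). These medians describe the fitted values and carry no test.

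Nr3c1 was checked because its allele is floxed in all mice. In members of mice given isotype antibody it ran from 59.7 to 123 CPM (floxed) and from 62.9 to 100.3 CPM (LysM-Cre), and with anti-PD-1 from 58.8 to 129 CPM (floxed) and from 39.8 to 88.6 CPM (LysM-Cre), with overlap throughout (genotype 0.12, SE 0.19, and -0.23, SE 0.33, edgeR adjusted p = 0.9999 and 0.961). In macrophage-like cells, where the promoter is active, it ran from 60.8 to 74.8 CPM in floxed isotype mice and was at 46.9, 35.9, 45.0 and 77.8 CPM in LysM-Cre isotype mice 1 to 4. With anti-PD-1 it ran from 53.9 to 69.8 CPM in floxed and from 22.9 to 43.2 CPM in LysM-Cre mice. All LysM-Cre mice but isotype mouse 4 lay below every floxed mouse, and mouse 4 lay above every floxed mouse. Reads from the 3′ end need not cover the deleted part of the gene, so these values are no check on recombination. Genes that divide the members differed in spread between conditions. With isotype, Tcf7 was at 114 ± 9.73 CPM (floxed) and 105 ± 27.2 CPM (LysM-Cre). With anti-PD-1, Tcf7 was at 99.3 ± 60.8 CPM (floxed) and 156 ± 33.8 CPM (LysM-Cre), each as mean and SD of n = 4. Gzmb was at 626 ± 216 and 497 ± 350 CPM with isotype and at 790 ± 373 and 844 ± 682 CPM with anti-PD-1, in the same order. Neither gene passed in any contrast.

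Of 81 antibodies tested by condition, edgeR called 1 (1.23%) by genotype over both treatments, and none (0.0%) in each of the other 6 contrasts. At an unadjusted p of 0.05 those 6 counted 4 (genotype under isotype), 12 (genotype under anti-PD-1), 12 (treatment in floxed mice), 8 (treatment in LysM-Cre mice), 16 (treatment overall) and 10 (interaction). DESeq2 called 0, 4, 5, 1, 4 and 1. The antibody called was TIM3. It was at 2301, 2243, 1415 and 1398 antibody CPM in floxed isotype and 703, 1185, 1635 and 810 in LysM-Cre isotype mice. Under anti-PD-1 it was at 2832, 2323, 2389 and 2920 in floxed and 1466, 1345, 1168 and 1424 in LysM-Cre mice. LysM-Cre mice were lower without overlap under anti-PD-1 and with overlap under isotype (1 LysM-Cre mouse above 2 floxed mice).

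The log2 change of TIM3 antibody over both treatments was -0.94 (SE 0.20, edgeR adjusted p = 0.0388). It was -0.84 (SE 0.27, adjusted p = 0.226) with isotype and -1.05 (SE 0.31, adjusted p = 0.0980) with anti-PD-1. Leaving out 1 mouse at a time gave -1.07 to -0.83 with adjusted p from 0.00987 to 0.153, and 11 of 15 such fits did not pass. The call held when the mouse left out was mouse 3 of floxed isotype or LysM-Cre isotype, or mouse 1 or 3 of floxed anti-PD-1, and in no other case. The interaction of genotype and treatment was -0.21 (edgeR adjusted p = 0.993). By pool it was -1.08 (E5, adjusted p = 0.158) and -0.78 (E6, adjusted p = 0.634). The control antibody rat IgG1 was at 34.5 to 93.3 in floxed and 73.4 to 230.4 in LysM-Cre isotype mice, and under anti-PD-1 at 182 to 682 and 66.6 to 250.3; its part in the TIM3 values was not tested. No Havcr2 UMI was counted in these cells, by the rule. Fewer cells that bind the antibody and less antibody bound per cell cannot be told apart. CD279 antibody was lower by fitted value (-0.54, SE 0.21, adjusted p = 0.342) and did not pass.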

How the data were processed

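CITE-seq, which reads RNA and antibody tags of single cells, was deposited as 2 matrices of whole-number UMI counts, 1 per pool, with 32285 genes, 88 antibodies and the hashtags. The authors' counts came from Cell Ranger 6.1.2 per the file headers, whereas version 3.0.1 and the build mm10 are given per the submitters' processing notes. No filter or normalization by the authors is recorded in the sources used here. Pool E5 held 15301 barcodes with 176338827 gene UMIs, of which 9889 were kept and 776 were members (7.85%), and pool E6 held 16614 with 221763950, of which 10518 were kept and 534 were members (5.08%).

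Members and gene lists (28 lists, 437 genes) were chosen with earlier results of these data known. Raw UMIs were summed per mouse over mice with at least 10 cells and tested with edgeR 4.0.16 (R 4.3.3; glmQLFit, filterByExpr, TMM; condition and pool as terms). Cell classes were compared with the mouse as block, after each cell was thinned to 2000 UMIs, and genes of the rule were left out. Antibodies were summed unthinned, with a total of at least 100. P-values were adjusted by Benjamini-Hochberg over all genes or antibodies tested. Shares were compared by exact permutation over mice (scipy 1.17.1). DESeq2 1.42.0, other depths, filters, cell minimums, pools alone and each mouse left out were alternatives. Levels, unlike fits, leave out 2 members with over 10000 antibody counts, 1 of them with 171532. Doublets of different mice were removed through hashtags; those within a mouse were not, and Scrublet scores (scanpy 1.11.5), whose automatic threshold marked no barcode, served as an alternative. Every mouse is a separate animal, and same-numbered mice of different conditions are not paired.

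Genes named are list members, called genes averaging at least 10 CPM by condition, and the 12 with the largest change in each direction averaging at least 50 CPM between classes, of which a part is printed; 1 gene and its protein are not reported here. Tested on simulated data, the genotype fit over both treatments (5636 genes) recovered 82% of log2 changes of 1 and 99% of 2, with 10 false calls. The treatment fit in floxed mice (5635 genes) recovered 32.6% and 84.5% with 1 false call, and the fit of Havcr2-negative against Havcr2-positive cells (1415 genes) 97.9% and 100% with 11. The simulated counts followed the fitted trend of spread, without spread particular to a gene or single cells that hold most of a gene's UMIs. Recovery in the real data can therefore be lower. A median of 816 antibody counts per member limits the weaker antibodies. Intervals cover counting error only. The deposited antibody table lists the same tag for hashtags 8 and 9, which both mark floxed isotype mice; the matrices count them separately.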

Additional observations from a re-analysis of the deposited data

Results flagged for a closer look

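In each condition the mouse farthest from its nearest neighbour was compared with the range of its 4 mice, and its gap counted as large above Dixon's critical value of 0.829. Of 51 groups tested 5 had such a mouse, and chance alone gives such a mouse in about 5% of groups. Floxed anti-PD-1 mouse 1 had 2756 CPM of Ifng, with the nearest mouse of its condition at 402 CPM, and 2809 CPM of Ccl3, with the nearest at 225 CPM. Both values come mostly from 1 cell, as given above.

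Floxed anti-PD-1 mouse 2, with 8 members, had a share of kept cells of 4.97%, with the nearest mouse at 3.02%, and CD279 antibody at 1093 antibody CPM, with the nearest at 2389. LysM-Cre isotype mouse 3 had 836 CPM of Ccl4, with the nearest mouse at 392 CPM. That mouse held 97 members, and its Ifng level of 153 CPM lay next to the 110 CPM of mouse 4.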

How the results depend on the processing

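Limits were set by cells and mice: anti-PD-1 groups held 71 and 112 members, and 1 mouse was dropped. The alternative without any C1q or Lyz2 UMI could not be fitted, since it left 0 to 19 cells per mouse. Added after seeing the data were the Scrublet threshold, the fit without barcodes over 10000 antibody counts, and the fit without the barcode with most Ifng UMIs. Among 89 genes and antibodies compared between classes, 914 of 969 values with 1 mouse left out kept direction and call and 55 lost the call. Under other settings 520 of 581 kept both, 59 lost the call and 2 reversed: Spp1 (0.0639) and Mpc2 (0.23) in the Tcf7 split at 4000 UMIs. The cause of the changes below was not tested.

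Gene calls are given in the order genotype under isotype, genotype under anti-PD-1, treatment in floxed, treatment in LysM-Cre, treatment over both, genotype over both and interaction, where the reported counts were 0, 1, 0, 0, 0, 0 and 0. Without a filter on low counts they were 53, 47, 52, 39, 72, 69 and 16. DESeq2 called 0, 7, 1, 0, 3, 6 and 1. Pool E5 alone gave 7, 7, 1, 3 and 3 (genotype under anti-PD-1, treatment in floxed, treatment over both, genotype over both, interaction), and pool E6 alone 3, 1 and 1 (genotype under anti-PD-1, genotype over both, interaction). Thinning to 2000 UMIs gave 2 (genotype under anti-PD-1), 2 (treatment in floxed), 1 (treatment in LysM-Cre) and 2 (genotype over both). Genotype under anti-PD-1 had 2 with at least 5 cells and 0 without the Ifng barcode. Genotype over both had 1 with at least 20 cells, 1 with at least 5, 1 with a top hashtag of at least 90% and 3 without Scrublet doublets. Leaving out 1 mouse gave 0 to 2, 0 to 5, 0 to 5, 0 to 1, 0 to 1, 0 to 5 and 0 to 0. Ccl3 by genotype under anti-PD-1 turned from -3.63 to 0.32 in pool E6 and 0.28 without the barcode.

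Against Havcr2-positive cells the 268 calls became 833 unthinned, 457 at 4000 UMIs, 415 without a filter, 168 and 100 in pools E5 and E6, 166 without the mouse as replicate block, and 214 to 294 with 1 mouse left out. Against CD4 T cells the 369 became 802 unthinned, 575 without a filter, 111 in pool E6, 212 without the block and 289 to 393 with 1 mouse left out. In the Tcf7 split the 86 became 311 unthinned, 281 at 4000 UMIs, 130 without a filter, 33 and 41 in pools E5 and E6, 15 without the block and 49 to 93 with 1 mouse left out. Conditions hold different mice, so no paired fit between them was made.

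Antibody calls by DESeq2 were 4 (genotype under anti-PD-1), 5 (treatment in floxed), 1 (treatment in LysM-Cre), 4 (treatment over both), 4 (genotype over both) and 1 (interaction). Pool E5 alone gave 2 in each of these but treatment in LysM-Cre. Genotype over both had 0 in pool E6 and 0 without a minimum total, and treatment in floxed had 3 without barcodes over 10000 counts. With 1 mouse left out the contrasts gave 0 to 1, 0 to 3, 0 to 3, 0 to 0, 0 to 3, 0 to 3 and 0 to 1 in the order above. Against Havcr2-positive cells the 22 became 11 and 14 in pools E5 and E6 and 20 to 24 with 1 mouse left out. In the Tcf7 split the 7 became 25 with DESeq2, 2 in pool E5 and 3 to 9 with 1 mouse left out. Against CD4 T cells the 33 became 13 in pool E6 and 24 to 36 with 1 mouse left out.

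The genotype difference in the share of kept cells under anti-PD-1 (0.924 points) was -0.0764 in pool E6 and -0.00882 to 1.53 with 1 mouse left out. That in the share of CD8 T cells without Havcr2 (1.14 points) was -9.14 at 4000 UMIs, -6.55 with at least 1 Cd8 UMI unthinned, -6.78 in pool E5 and -6.56 to 6.03 with 1 mouse left out. For treatment in floxed mice (-5.78 points) it was 0.812 at 4000 UMIs, 3.64 in pool E5 and -10.7 to 1.92 with 1 mouse left out.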
